A study of Mus musculus with 7 samples.

Results

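The genes described here encode interleukin-6 family ligands (Il6, Lif, Osm), their receptor chains (Il6ra, Osmr and the shared chain Il6st, or gp130), the kinase Jak1, the transcription factor Stat3 and the feedback inhibitor Socs3. They were listed by name because Il6st and Socs3 had read higher in the Atg16l1 hypomorph, and every probe set annotated to one of them alone was taken. Of the 9 genes, 8 were found among the 12393 named genes of the array, with 19 of its 22625 probe sets. No probe set was named for Osm in the annotation used here, so that ligand was not analysed.

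RNA came from CD11c+ cells separated magnetically from mouse spleen 7 days after an allogeneic transplant of hematopoietic stem cells. CD11c, an integrin on the cell surface, is the usual handle for isolating dendritic cells. There were 4 wild-type (C57BL/6J) arrays and 3 arrays of Atg16L1 hypomorphic mice (C57BL/6J), with 1 array per sample and 100 ng of total RNA per labelling. All 7 samples share the transplant, the day and the C57BL/6J background. The mice are 8 weeks old in the series text but 9 weeks old at collection in the sample protocol. Atg16L1 is an autophagy protein, and a hypomorphic allele retains part of its function. The labels do not say whether recipient, donor or both carried the allele, which allele it is, or whether each array is a separate animal, so any p-value measures only the spread between these samples. The number of arrays limits the precision.

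In this family a ligand first binds its own receptor chain, and the complex then draws in gp130, which carries the signal. Kinases of the JAK family bound to gp130 phosphorylate its tail, STAT3 docks there, is phosphorylated and enters the nucleus. Socs3 is one of the genes STAT3 switches on, and its protein binds gp130 and JAK and shuts the signal down. In dendritic cells signalling through STAT3 is known to restrain maturation and inflammatory cytokine output, and in lymphocytes to guide helper T cell differentiation.

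The DNA before the start of Il6st, Socs3 and Stat3 is shown because these are the gp130 chain, its inhibitor and the factor that links them, and because probe sets of all these genes read higher on average in the hypomorph. Each line gives the 250 bases before the RefSeq gene start in GRCm38.p6, 5′ to 3′ on the strand of the gene. Capitals mark matches to TTCNNNGAA, the palindromic core bound by STAT proteins, or to TTNCNNNAA, a related but separate pattern with more open positions, searched on both strands.
Il6st, chr13:112463820-112464069, plus strand: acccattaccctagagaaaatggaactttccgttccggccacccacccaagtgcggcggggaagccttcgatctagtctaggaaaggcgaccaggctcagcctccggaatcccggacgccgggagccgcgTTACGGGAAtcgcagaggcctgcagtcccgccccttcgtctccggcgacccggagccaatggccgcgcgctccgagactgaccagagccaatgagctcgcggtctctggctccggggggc
Socs3, chr11:117969367-117969616, minus strand: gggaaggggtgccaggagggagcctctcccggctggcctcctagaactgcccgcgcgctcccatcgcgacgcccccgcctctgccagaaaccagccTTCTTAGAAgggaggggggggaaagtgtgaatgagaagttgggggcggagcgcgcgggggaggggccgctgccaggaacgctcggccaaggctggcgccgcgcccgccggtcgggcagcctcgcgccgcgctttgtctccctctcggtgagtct
Stat3, chr11:100939541-100939790, minus strand: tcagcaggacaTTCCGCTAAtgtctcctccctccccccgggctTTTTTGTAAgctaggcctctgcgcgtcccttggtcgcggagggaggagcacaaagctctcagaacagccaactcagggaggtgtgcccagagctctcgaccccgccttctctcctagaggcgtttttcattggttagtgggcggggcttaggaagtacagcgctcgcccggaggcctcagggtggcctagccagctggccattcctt
In the window of Socs3 the match TTCTTAGAA lay 154 to 146 bases before the start and was the 1 match to TTCNNNGAA among the 8 genes. TTCNNNGAA was found in 7.02% of 32851 RefSeq promoter windows of this length. In the window of Il6st, TTACGGGAA lay 120 to 112 bases before the start and matched TTNCNNNAA on both strands, since TTNCNNNAA can overlap its own reverse complement. Stat3 held 2 matches to TTNCNNNAA, TTCCGCTAA and TTTTTGTAA. That pattern was found in 32.9% of all windows, so a match to it is common. A match describes the letters only.

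Across the 19 probe sets the hypomorph mean was above the wild-type mean in 16, where 50.7% of all probe sets of the array were, and the median log2 difference was 0.27. The groups did not overlap in 4, all higher in the hypomorph, against 5.57% of all probe sets in either direction and 3.07% in this one. At an adjusted p of 0.05, limma called 0 of the 19 and 0% of all probe sets, while 10, all higher, had an unadjusted p under 0.05, against 7.69% of all probe sets in either direction and 4.35% in this one. Because the genes were chosen on this same difference, these counts describe the choice and no test is drawn from them. Without hypomorph replicate 2 the groups did not overlap in 10 of the 19, but the share over all probe sets was then 21.4%. Without wild-type replicate 3 the numbers were 8 and 9.28%.

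**Figure D1:**
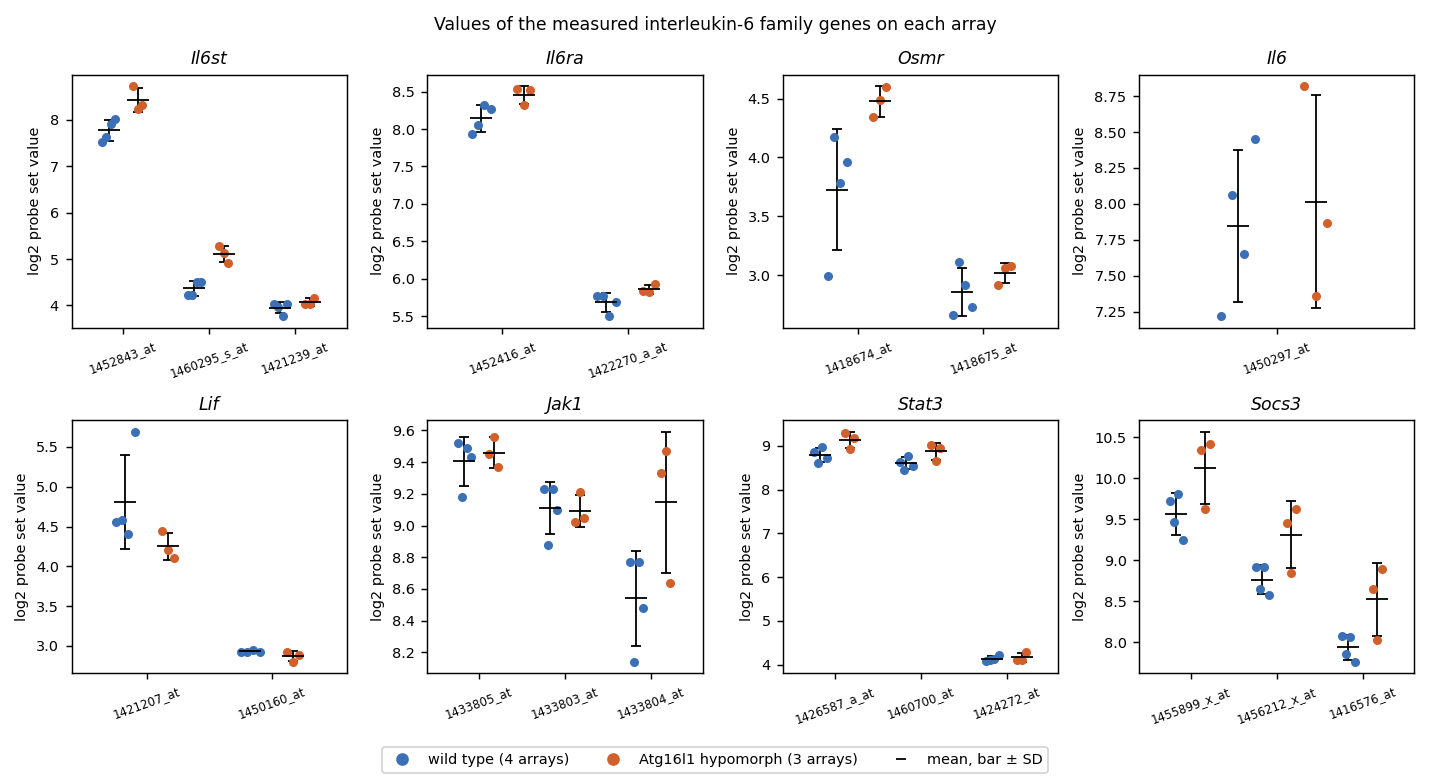
Log2 value of each probe set (x axis: probe set; y axis: log2 value) of the 8 measured genes on the 4 wild-type (blue) and 3 hypomorph (orange) arrays, with the mean and SD in black; the y axes differ in range. The orange points lie above all blue points for 2 probe sets of Il6st and 1 each of Il6ra and Osmr, and 1 of the 3 orange points of Socs3 lies within the blue ones.

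The shared signalling chain Il6st read higher in the hypomorph with each of its 3 probe sets, but by unequal amounts. Probe set 1452843_at read 7.53, 7.63, 7.92 and 8.01 on the wild-type arrays and 8.73, 8.24 and 8.32 on the hypomorph arrays. The lowest hypomorph value exceeded the highest wild-type value, and hypomorph replicate 1 was highest. The means were 7.77 ± 0.229 (SD, n = 4) and 8.43 ± 0.261 (SD, n = 3), a 1.58-fold difference. Probe set 1460295_s_at, whose suffix marks probes shared by several transcripts, read 4.23, 4.23, 4.51 and 4.50 on the wild-type arrays, against 5.28, 5.13 and 4.92 on the hypomorph arrays. These groups did not overlap either, and the difference was 1.67-fold. This is the difference for which the gene was listed. Probe set 1421239_at stayed between 3.77 and 4.17 on all arrays, with a log2 difference of 0.13 and overlapping groups, and on 4 arrays its value was identical to that of another array. Leaving out single arrays kept the log2 difference of the first probe set between 0.51 and 0.75 and that of the second between 0.66 and 0.84. Adding 32 to the linear values, which damps dim probe sets, brought the second to 0.34.

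Il6ra encodes the chain that binds interleukin-6 itself. Probe set 1452416_at read 7.93, 8.06, 8.32 and 8.27 on the wild-type arrays, against 8.53, 8.32 and 8.52 on the hypomorph arrays. Hypomorph replicate 2 lay within the wild-type range and the other two above it. The log2 difference was 0.31, or 1.24-fold, and 0.24 to 0.38 with single arrays left out. Probe set 1422270_a_at gave 5.77, 5.77, 5.50 and 5.69 against 5.83, 5.82 and 5.93, so its groups were separate by a narrow margin, with a log2 difference of 0.18.

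Osmr encodes the chain that pairs with gp130 to bind oncostatin M. Probe set 1418674_at read 2.99, 4.17, 3.78 and 3.96 on the wild-type arrays, against 4.34, 4.49 and 4.60 on the hypomorph arrays. The hypomorph arrays were close together above all wild-type arrays, and wild-type replicate 1 was low. The means were 3.72 ± 0.516 (SD, n = 4) and 4.48 ± 0.133 (SD, n = 3), 1.68-fold apart. The log2 difference was 0.51 without wild-type replicate 1. These are dim values. That of wild-type replicate 1 lay under the lower quartile of its array (3.37) and the other values between the lower quartiles and the medians, and with 32 added to the linear values the difference fell to 0.25, so its size depends on how background is treated. The other probe set, 1418675_at, read 2.66 to 3.11 on all arrays, under the lower quartile of every array.

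Genes of endothelium and stroma, which are known to carry the oncostatin M receptor, also read higher on the hypomorph arrays, with 0 of them past an adjusted p of 0.05 in limma. All 7 endothelial markers measured had a positive difference, against 49.2% of all genes, with a median of 0.34 and a summed linear value of 293.8 to 484.2 in wild type and 412.5 to 574.1 in the hypomorph. Pecam1, Cdh5 and Tie1 did not overlap between groups, against 5.15% of all genes in either direction and 2.43% in this one. The other probe set of Cdh5, at 2.83 to 3.32, gave -0.06 with overlapping groups. Emcn, Tek and Tie1 read between 2.61 and 3.66, near the lower quartile. Of 8 fibroblast and stroma markers 6 were positive, with a median of 0.27 (0.12 without hypomorph replicate 1). Their sums were 164.3 to 335.6 in wild type and 283.2 to 455.2 in the hypomorph. The 2 negative differences were those of Lum (-0.01) and Pdgfrb (-0.0010). Col1a1 (0.02) and Lum stayed between 2.73 and 3.08. Cxcl12 had 0.89 (0.58 without wild-type replicate 1), and 1.17 with its other probe set, both without overlap. In both lists wild-type replicate 1 gave the lowest sum, and it was also the lowest array for Osmr. By median, however, the fibroblast and stroma markers were lowest on wild-type replicate 4 (-0.16, against -0.08 on replicate 1). Wild-type replicate 1 was also the lowest of the 7 arrays for red pulp macrophage (median -0.50) and dendritic cell markers (-0.23). The part of these cells in the values of Osmr and Il6st was not tested, and in such mixed samples a change in the number of cells of a type cannot be told apart from a change in RNA per cell.

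Among the ligands, Il6 varied widely within each group. Its 1 probe set read 7.22, 8.06, 7.65 and 8.45 on the wild-type arrays, against 8.82, 7.36 and 7.87 on the hypomorph arrays. The highest value was on hypomorph replicate 1, and the groups overlapped. The means were 7.85 ± 0.529 (SD, n = 4) and 8.02 ± 0.739 (SD, n = 3). The log2 difference of 0.17 became -0.23 when hypomorph replicate 1 was left out, -0.04 when wild-type replicate 1 was, and 0.50 when hypomorph replicate 2 was, so even its sign depends on single arrays.

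Lif, leukemia inhibitory factor, was the 1 gene of the group whose probe sets both read lower. Probe set 1421207_at gave 4.56, 4.58, 4.41 and 5.69 on the wild-type arrays, against 4.44, 4.20 and 4.11 on the hypomorph arrays. Wild-type replicate 4 stood apart, and without it the log2 difference moved from -0.56 to -0.27. Wild-type replicate 4 was also the array with the highest values of the basophil genes Mcpt8 (9.34, against 7.47 to 8.14 on the other wild-type arrays) and Fcer1a (7.41, against 5.95 to 6.62). All 7 basophil and mast cell markers were lower in the hypomorph, with a median of -0.82 and sums of 863.4 to 1692 in wild type and 501.5 to 591.4 in the hypomorph. Of the 7 arrays, wild-type replicate 4 was also highest for pancreatic acinar markers (median 1.67 above the wild-type mean) and monocyte markers (0.36). By a narrow margin over hypomorph replicate 1 it was highest for red pulp macrophage (0.42 against 0.41) and dendritic cell markers (0.11 against 0.10). For B cell markers it was highest at 0.11, against 0.08 on hypomorph replicate 3. The part of these cells in the Lif value was not tested. The second probe set of Lif, 1450160_at, lay between 2.80 and 2.95, under the lower quartile of every array.

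**Figure D2:**
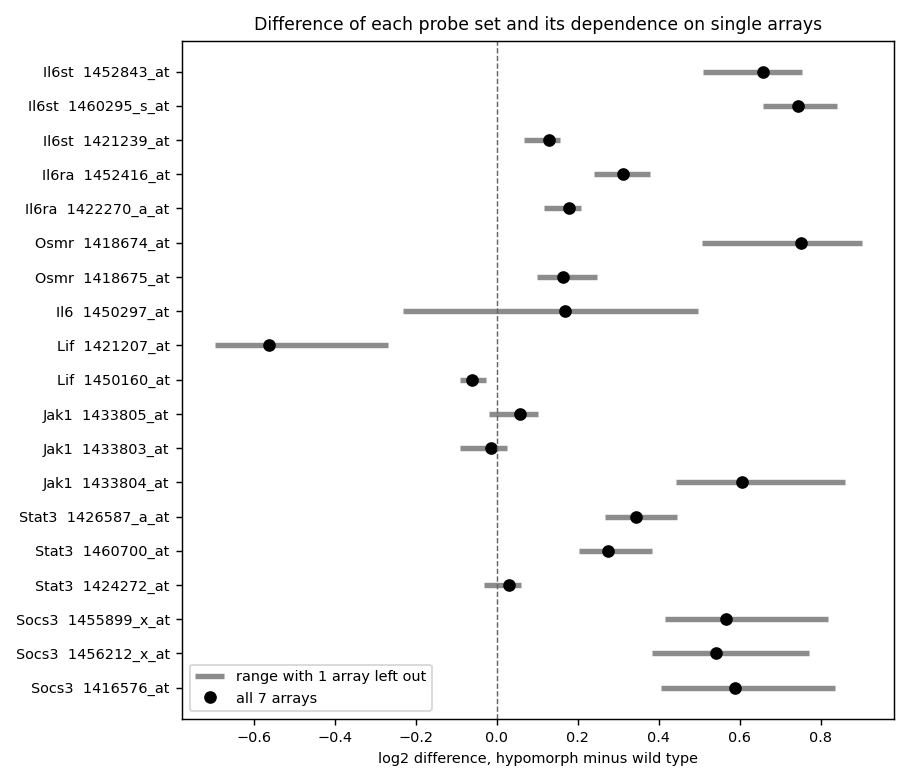
Log2 difference, hypomorph minus wild type (x axis), of each probe set (y axis) with all 7 arrays (points) and the range when any 1 array is left out (grey bars). The bars of Il6, of 2 probe sets of Jak1 and of 1 of Stat3 cross 0, and those of every probe set of Il6st, Il6ra, Osmr and Socs3 lie above it.

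Jak1, the kinase that carries most of the gp130 signal, had 1 probe set of 3 whose difference stood apart from the others. Probe set 1433805_at read 9.52, 9.18, 9.49 and 9.43 on the wild-type arrays, against 9.45, 9.56 and 9.37 on the hypomorph arrays, with a log2 difference of 0.06. Probe set 1433803_at had a log2 difference of -0.01 and 1433804_at one of 0.61. The last read 8.77, 8.14, 8.77 and 8.48 against 9.33, 9.47 and 8.64, so that hypomorph replicate 3 lay among the wild-type arrays. The mean over the 3 probe sets was 0.22. Within groups the probe sets still followed each other, with Pearson r of 0.74 to 0.96 between their deviations from the group mean over the 7 arrays. The array order of 1433805_at in wild type, lowest on replicate 2 and highest on replicate 1, was shared by several marker lists. Relative to the wild-type mean, T cell marker medians were 0.48, -0.36, 0.07 and -0.22 on the wild-type arrays. On the hypomorph arrays they were 0.06, 0.22 and -0.10. Markers of NK and cytotoxic lymphocytes had the same order in both groups, with 0.31, -0.26, 0.08 and -0.07, then -0.03, 0.17 and -0.12. Megakaryocyte and platelet markers had it in wild type alone, at 0.04, -0.06, 0.03 and -0.03. Summed T cell markers ran from 3750 to 6855 in wild type and from 4494 to 5686 in the hypomorph. The part of these cells in the Jak1 value was not tested.

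Stat3 read higher on hypomorph replicates 1 and 3. Probe set 1426587_a_at gave 8.87, 8.62, 8.98 and 8.72 on the wild-type arrays, against 9.29, 8.93 and 9.19 on the hypomorph arrays. Hypomorph replicate 2 lay below wild-type replicate 3, and the other two above all wild-type arrays. The means were 8.80 ± 0.160 (SD, n = 4) and 9.14 ± 0.185 (SD, n = 3), a 1.27-fold difference. Probe set 1460700_at had the same array pattern, with a log2 difference of 0.27 and r of 0.99 between the deviations of the pair. The dim probe set 1424272_at read 4.09 to 4.29 on all arrays, with a log2 difference of 0.03.

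Socs3, the inhibitor, read higher on 2 of the 3 hypomorph arrays. Probe set 1455899_x_at gave 9.72, 9.47, 9.81 and 9.25 on the wild-type arrays, against 10.34, 9.62 and 10.42 on the hypomorph arrays. Probe set 1456212_x_at gave 8.92, 8.65, 8.92 and 8.57 against 9.45, 8.85 and 9.63. Probe set 1416576_at gave 8.07, 7.86, 8.06 and 7.76 against 8.65, 8.03 and 8.89. In all of these, hypomorph replicate 2 lay within the wild-type range and the other hypomorph arrays above it. The log2 differences were 0.57, 0.54 and 0.59, or 1.46-fold to 1.50-fold. Without hypomorph replicate 2 they were 0.77 to 0.84, and without hypomorph replicate 3 they were 0.38 to 0.42. The suffix of the first pair of probe sets marks probes that may also bind other transcripts, but the array pattern of 1416576_at matched theirs, with r of 0.96 to 0.99 between deviations from the group means. Neutrophil markers, 9 measured, were all lower in the hypomorph (median -0.64, sums 61580 to 68860 in wild type and 38830 to 68230 in the hypomorph), and their medians on the 3 hypomorph arrays were -1.18, -0.53 and 0.12. Leaving out hypomorph replicate 1 moved the neutrophil median to -0.23, and leaving out replicate 3 moved it to -1.01. All 9 red pulp macrophage markers were higher (median 0.33, sums 22360 to 37630 and 32720 to 38370), but 6 of 9 with a median of 0.17 without wild-type replicate 1. The macrophage medians on the 3 hypomorph arrays were 0.41, 0.16 and 0.29, lowest on replicate 2 as for Socs3, and on the wild-type arrays -0.50, 0.19, -0.11 and 0.42, where Socs3 was highest on replicates 1 and 3. The part of neutrophils and macrophages in the Socs3 value was not tested.

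**Figure D3:**
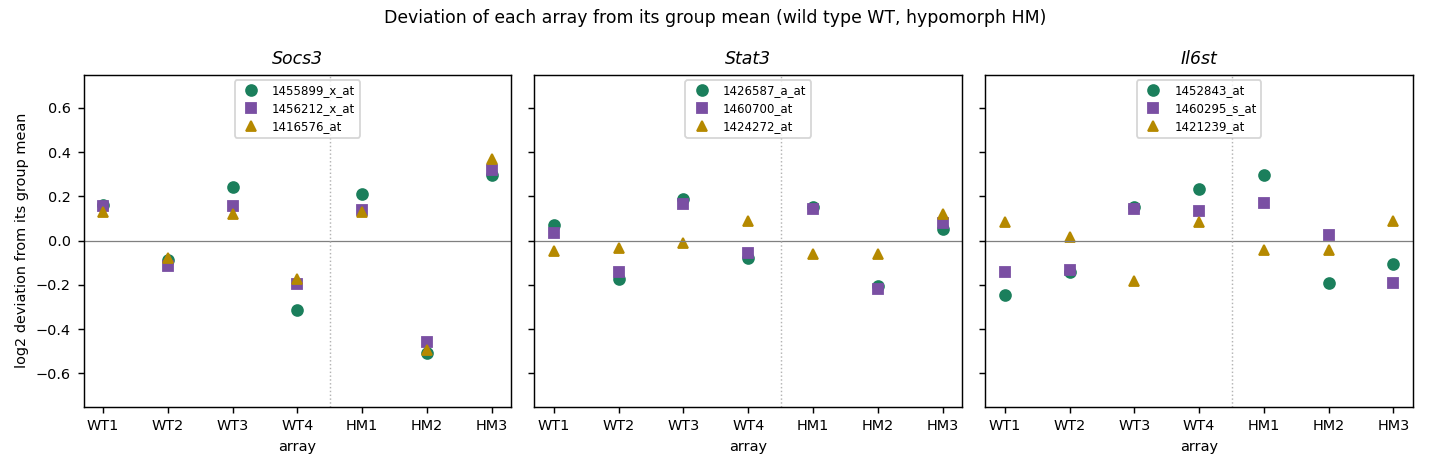
Deviation of each array (x axis: WT, wild type; HM, hypomorph, with replicate number) from its own group mean, in log2 units (y axis), for the 3 probe sets each of Socs3, Stat3 and Il6st. Points of the Socs3 probe sets fall together on each array, with HM2 lowest, and HM2 is also the lowest array for 2 of the 3 Stat3 probe sets.

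Deviations from the group means do not use the difference between groups by which the genes were picked, so the 28 pairs among the 8 genes were compared on them, each gene by its probe set of highest mean. The pair with the smallest p was Socs3 and Stat3, with Pearson r = 0.859 and Spearman rho = 0.75 over 7 arrays (exact two-sided permutation p within groups 0.0417 and 0.104). After Benjamini-Hochberg adjustment over the 28 pairs the exact permutation p was 0.632 and 0.7, so the relation did not pass. Without wild-type replicate 4 and hypomorph replicate 2, the arrays farthest out for Socs3, r was 0.859. Il6st went with Il6ra (r = 0.825, rho = 0.857) and with Il6 (r = 0.815, rho = 0.821), with exact permutation p of 0.0764 for both r (adjusted 0.632), and 0.0417 and 0.0694 for rho (adjusted 0.7). The r of Il6st with Il6ra was 0.649 without wild-type replicate 1 and hypomorph replicate 2. That with Il6 was 0.38 without wild-type replicate 4 and hypomorph replicate 1, so it rests on those arrays. Between the probe sets of Il6ra the r of deviations was -0.59. For Il6st it was 0.84 between 1452843_at and 1460295_s_at, but -0.34 and -0.60 between these and 1421239_at. Stat3 1424272_at gave 0.05 and 0.16 with the other Stat3 probe sets, the pair of Lif gave 0.06 and that of Osmr 0.75. The r of a gene pair therefore describes the probe sets of highest mean only. Of the 28 pairs, 20 had a positive r and 0 passed, where 144 orders allow a smallest p of 0.00694.

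The genes whose deviations were most like those of each gene were taken from 5331 probe sets of single genes with a mean of at least 6 and at least the median SD. With so few arrays such a search returns high values for any gene, and these are descriptions. For Il6st they were Gpr65 (r = 0.96), Serinc1 (0.96) and Pcmtd1 (0.95), whose log2 differences between groups were 0.37, 0.19 and 0.98. For Socs3 they were Inpp5k (0.99), Slc25a28 (0.99) and Sos2 (0.99), with differences of 0.06, 0.11 and -0.19. These values lay below the difference of Socs3 itself (0.57), and what that means for Socs3 was not tested. For Stat3 they were Stxbp3 (0.99), Phlpp1 (0.99) and Tab2 (0.99), with differences of 0.63, 0.60 and 0.16.

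The rest of the pathway was described from 5 lists with 45 measured genes, each by its probe set of highest mean. At an adjusted p of 0.05, limma called 0 of them higher and 0 lower, as for 0% of the 12393 genes. At an unadjusted p under 0.05 there were 6 higher and 0 lower, against 3.57% and 3.59% of all genes. Of the 45, 28 had a positive difference (49.2% of all genes) with a median of 0.03, and 2 did not overlap between groups (5.15% of all genes). These lists were chosen with earlier results of these data known, so the counts are descriptions.

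Among other ligands and receptor chains of the family, Clcf1 had the largest difference. Of 9 further ligands 4 were measured, 3 of them positive, with a median of 0.08. Clcf1, cardiotrophin-like cytokine, read 5.77, 6.39, 6.47 and 6.18 on the wild-type arrays, against 6.55, 6.21 and 6.83 on the hypomorph arrays, with overlapping groups and a log2 difference of 0.33, or 0.18 without hypomorph replicate 3 and 0.49 without hypomorph replicate 2. Its other probe sets gave 0.42 and 0.15. Il11 had 0.14, Ctf1 0.03 and Ebi3, a subunit of interleukin-27, -0.19. Il11 read 2.96 to 3.32, under the lower quartile of every array. Ctf1 was at -0.01 without hypomorph replicate 3. Of 5 further receptor chains 4 were measured, with differences of 0.02 for Cntfr, 0.01 for Il27ra, -0.02 for Il31ra and -0.04 for the leukemia inhibitory factor receptor Lifr, each of which turned sign when some single array was left out. By the probe set of highest mean, the differences of Il6st, Il6ra and Osmr were larger than those of the 4 other receptor chains. Their other probe sets gave 0.74 and 0.13 for Il6st, 0.18 for Il6ra and 0.16 for Osmr. Cntfr (4.16 to 4.42) and Il31ra (3.89 to 4.39) were dim, which limits the difference that could show. Il6st, Il6ra and Osmr were also chosen with these data in view, and the contrast was not tested.

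Of the other signal transducers 8 were measured, with a median of -0.02 and 3 positive. Gab1, an adaptor of the gp130 MAP kinase branch, read 6.22, 5.72, 6.45 and 5.85 on the wild-type arrays, against 6.90, 6.10 and 7.00 on the hypomorph arrays. Hypomorph replicate 2 was again within the wild-type range, and the log2 difference was 0.61 (limma adjusted p = 0.644), or 0.44 to 0.89 with single arrays left out. Its other probe sets gave 0.83 and 0.08. Ptpn11, the phosphatase SHP2 that docks on gp130, had -0.09 with its brightest probe set and 0.53, without overlap, with another. Grb2 had 0.14 and Sos1 0.12, which became 0.0079 and -0.03 without hypomorph replicate 1 and 0.29 and 0.21 without hypomorph replicate 2. The kinases Jak2 and Tyk2 had -0.05 and -0.04.

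Of 9 other inhibitors and receptor proteases 5 were positive, with a median of 0.02. Socs2, a relative of Socs3, was the exception in size, at 8.39, 7.86, 8.39 and 8.16 on the wild-type arrays, against 9.22, 8.47 and 8.57 on the hypomorph arrays. The groups did not overlap, the log2 difference was 0.55 (limma adjusted p = 0.644), and the other probe set gave 0.48. Without hypomorph replicate 1 the difference was 0.31. Ptpn1, Socs1 and Pias1 had 0.16, 0.10 and 0.06.

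Of 20 genes known to respond to STAT3, 15 had a positive difference, against 49.2% of all genes, with a median of 0.14. At an unadjusted p under 0.05 there were 4 higher (3.57% of all genes) and 0 lower (3.59%), and 0 passed an adjusted p of 0.05. Il10, the anti-inflammatory cytokine that itself signals through STAT3, read 6.00, 6.51, 6.15 and 5.68 on the wild-type arrays, against 7.27, 6.08 and 7.53 on the hypomorph arrays. It shared with Socs3 the 2 high hypomorph arrays and the third within the wild-type range, and its log2 difference was 0.87 (limma adjusted p = 0.644), or 1.31 without hypomorph replicate 2 and 0.59 without hypomorph replicate 3. Hif1a, the oxygen-sensing transcription factor, had a log2 difference of 0.50, with its other probe sets at 0.46, 1.08 and 0.07. Il4ra, a receptor chain of interleukin-4, had 0.25 and Timp1, an inhibitor of matrix proteases, 0.51 without overlap, or 0.33 without wild-type replicate 1. Timp1 was dim, at 3.47 to 4.53, between the lower quartile and the median of each array. Leaving out hypomorph replicate 2 brought the median of the list to 0.24, with 15 of 20 positive. Leaving out hypomorph replicate 3 brought it to 0.02, with 12 of 20 positive. The 5 genes with a negative difference were Lcn2 (-0.64), Myc (-0.24), Cebpd (-0.21), Vegfa (-0.19) and Mcl1 (-0.07). Lcn2 is also among the neutrophil markers.

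**Figure D4:**
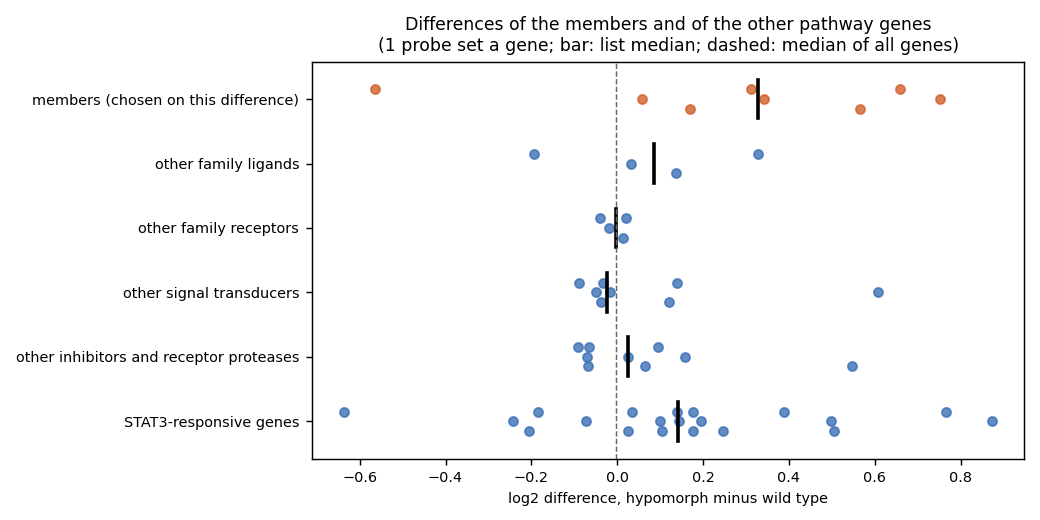
Log2 difference, hypomorph minus wild type (x axis), of the 8 genes described (orange) and of the genes of 5 further lists (blue), 1 point a gene, with list medians as bars and the median of all genes as a dashed line; vertical offsets only separate points. The medians are 0.33 for the genes chosen on this difference, 0.14 for the genes known to respond to STAT3 and between -0.02 and 0.08 for the others.

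The labelled cell type was checked on its markers. Itgax, which encodes CD11c, read 7.98 to 8.48 on the 7 arrays, above their upper quartiles (7.58 to 7.65), and the 10 dendritic cell markers had a median difference of 0.06 (-0.08 without hypomorph replicate 1), with sums of 7161 to 8650 in wild type and 7569 to 10560 in the hypomorph. The dendritic cell transcription factor Zbtb46 read 4.70 to 5.75. Transcripts of other cells were also well represented, with S100a9 of neutrophils at 13.53 to 14.13, Cd3d of T cells at 9.98 to 10.89 and C1qa of macrophages at 11.95 to 12.84, so the values above are those of a mixed population. Pancreatic acinar markers had the largest median difference of the marker lists, -2.10, with 8 of 9 lower and array medians of -1.78, -0.71, 0.73 and 1.67 in wild type against -2.65, -2.37 and -0.60 in the hypomorph. The sums were 777.8 to 5170 and 729.6 to 1540, and the median difference was -1.35 without wild-type replicate 4. Of 7 erythroid markers 6 were lower (median -0.80, sums 1945 to 3220 and 422.1 to 3844), with hypomorph replicate 3 at -2.06, and the median was 0.03 without that array but -1.45 without hypomorph replicate 2. Of 6 B cell markers 5 were lower (median -0.25, sums 398.2 to 496.8 and 244.7 to 484.8), and leaving out hypomorph replicate 1 or 3 gave medians of -0.11 and -0.43. The part of these cells in the values of the 8 genes was not tested. All 5 plasma cell markers had a positive difference, with a median of 0.42 and sums of 2288 to 3241 in wild type and 2949 to 3978 in the hypomorph. Il6st, Il6ra, Stat3 and Socs3 are known to be expressed in several of these cell types.

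**Figure D5:**
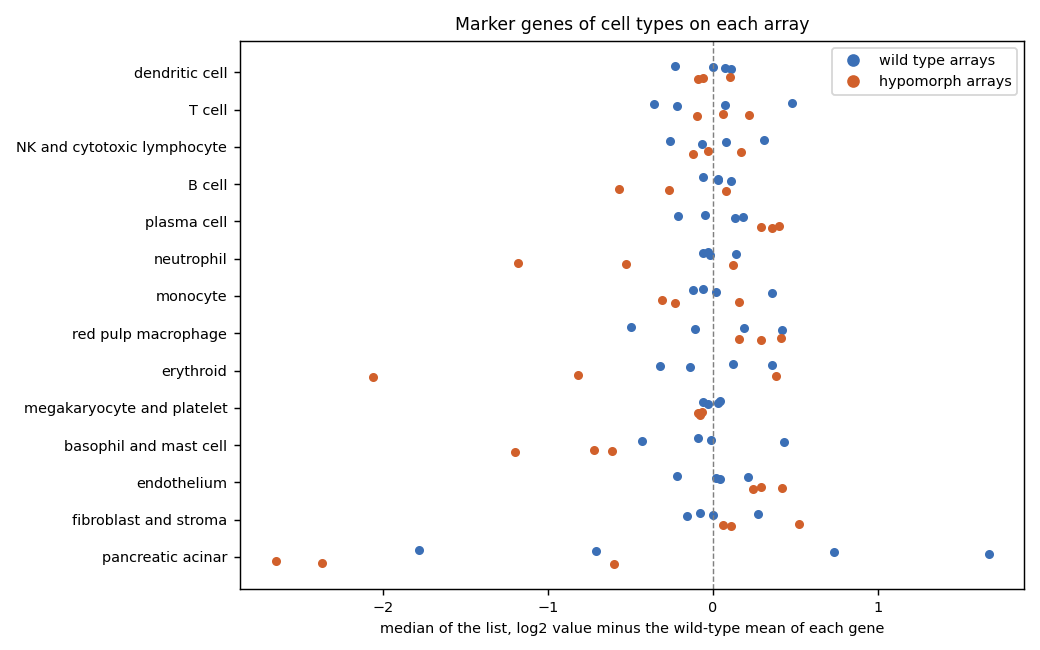
Median over the marker genes of each cell type (y axis) of the log2 value minus the wild-type mean of that gene (x axis), 1 point per array (blue, wild type; orange, hypomorph). Basophil and mast cell markers are lower and endothelial and plasma cell markers higher on all 3 hypomorph arrays, while T cell and dendritic cell markers overlap between groups.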

How the data were processed

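Total RNA of 7 samples was hybridized to Affymetrix Mouse430A arrays. The authors deposited log2 values, with 1 per probe set on each array. The tool named is Affymetrix Power Tools, per the submitters' processing notes. The sources used here give no version, summary method, background correction or normalization. Array medians were 5.46 to 5.53. Whether and how values were normalized between arrays, and how that treats dim values, is unknown.

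Of 22690 probe sets, 64 controls and 1 without a value were left out. Gene names came from the platform annotation, updated by Entrez identifier in a RefSeq table of GRCm38.p6 (20379 probe sets with 1 gene, 691 with several, 1555 with none). Promoter sequences are from RefSeq, with 8 of the 9 genes matched. The group difference was fitted in R 4.3.3 by limma 3.58.1 (lmFit, eBayes, no trend or block, Benjamini-Hochberg over all 22625 probe sets), checked on simulated data. The alternatives were median centring, quantile normalization, 32 added to the linear values, trend and robust settings, array weights, a minimum mean of 5, a replicate block and leaving out each array. Named were all 9 listed genes, up to 4 genes with the smallest unadjusted p per list, and the 3 most similar genes for Il6st, Socs3 and Stat3. Lcn2, Myc, Cebpd, Vegfa, Mcl1, Jak2, Tyk2 and the marker genes were named after their values were seen. A gene with several probe sets entered list counts with that of highest mean. The genes and lists were chosen with earlier results of these data known.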

Additional observations from a re-analysis of the deposited data

Results flagged for a closer look

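Within the 4 wild-type arrays, 5 of 39 probe sets examined had 1 array set apart by Dixon's criterion, which chance alone meets in about 1 of 20 groups. For Lif probe set 1421207_at, wild-type replicate 4 read 5.69 while the others read 4.41 to 4.58. For Lif probe set 1450160_at, wild-type replicate 3 read 2.95 against 2.93 on the others, a gap without practical size. For Ctf1 wild-type replicate 1 read 3.84 against 3.91, for Il31ra wild-type replicate 1 read 3.89 against 4.37, and for Il27ra wild-type replicate 2 read 5.50 against 5.90 to 5.93.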

How the results depend on the processing

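The differences of the 8 genes kept within 1 SD (pooled over the groups) of their value in 94 of 96 comparisons with an alternative. The exceptions were Osmr with 32 added (0.25 against 0.75) and Jak1 as a mean over its probe sets (0.22 against 0.06). In groups this small, leaving out 1 array cannot move a difference by 1 SD, so those comparisons could not fail. Il6, at 0.17 and at -0.23 without hypomorph replicate 1, counted as kept. The replicate block gave the same values as leaving out wild-type replicate 4, and median centring shifted all probe sets alike. The number of all probe sets with an adjusted p under 0.05 in limma was 0 in the main analysis, with 1739 at an unadjusted p under 0.05. It was 5 with each array centred on its median, 5 with trend and robust settings, 3 with array weights, 3 with a minimum mean of 5, and 0 to 2 with single arrays left out. The 16 higher probe sets of the group stayed within 1.5 times that count in every alternative run. The 4 whose groups did not overlap became 4 to 10 with single arrays left out. With the replicate block, and wild-type replicate 4 not used, they became 11, but the share over all probe sets was then 26.8%. No label pairs arrays across groups, so the main fit had no block. Same-numbered arrays correlated in their deviations at 0.10, 0.098 and 0.34. Differently numbered arrays were not compared, so these values cannot decide whether the numbers pair them. Signal near background limits what can be said of Osmr, Lif, the dim probe sets of Il6st and Stat3, and dim genes of the further lists such as Il11 and Timp1.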
